A study of Mus musculus with 9 samples.

Results

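Endothelial leukocyte adhesion molecules are the surface proteins by which a vessel wall slows, holds and passes white blood cells, together with the sialomucin and immunoglobulin-type proteins that sit on the same cells. The 8 genes described here are Icam1, Icam2, Vcam1, Sele, Selp, Pecam1, Cd34 and Mcam. They were chosen by symbol, as every probe set to which the platform annotation gives 1 gene symbol from that set. The rule found 11 probe sets of 36701, for 8 of 15964 named genes. All 11 lay on design A of the Affymetrix MG-U74v2 series, and designs B and C held none of them. Vcam1 had 3 probe sets, Cd34 had 2, and each of the other 6 genes had 1.

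The cells were GFP-positive cells sorted from retinas of homozygous Tie2-GFP mice at postnatal day 8, after intraperitoneal APB5, an antibody that neutralizes PDGFRb, from day 0 to day 7. All 9 arrays carried such cells, 3 replicate arrays on each of the designs A, B and C, so these data hold no untreated group and no effect of APB5 can be read from them. Retinas were pooled before dissociation, which ran through incubations of 60 min at 37 °C, and the RNA was amplified before labelling. The labels do not say whether replicate arrays came from separate pools, so SDs here measure only how far arrays differ, and part of that may be technical. Each p-value sets the distance of a probe set from the array median against that spread, so it has the same limit. The GFP transgene is driven by the Tie2 promoter, which is also active in some blood cells.

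In inflamed vessels, the selectins Sele and Selp catch leukocytes that roll along the wall, and the ICAMs and VCAM1 then hold them through leukocyte integrins. Pecam1 acts later, at the cell borders through which leukocytes pass. Sele, Vcam1 and Icam1 are classical targets of cytokine signalling through NF-kappaB, whereas Icam2, Pecam1, Cd34 and Mcam are made by resting endothelium too. The endothelium of the central nervous system is known for holding few leukocytes at rest.

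The start regions of 3 members are shown because these genes fell on different parts of the array scale in the results below. Icam1 and Sele are both cytokine-inducible and lay on opposite sides of the array median, and Mcam lay in the top 10%. RefSeq sequences for GRCm38.p6 were held for 5 of the 8 genes (Icam1, Sele, Selp, Cd34 and Mcam). Each printed run is the 250 bases before the annotated start, on the + strand, at chr9:21015690-21015939 for Icam1, chr1:164047984-164048233 for Sele and chr9:44134408-44134657 for Mcam. Capitals mark matches, on either strand, to GGNNNTTCC (a short form of the kappaB motif) or GGGCGG (the GC box), which were picked after the sequences had been read and do not overlap each other here.
Icam1: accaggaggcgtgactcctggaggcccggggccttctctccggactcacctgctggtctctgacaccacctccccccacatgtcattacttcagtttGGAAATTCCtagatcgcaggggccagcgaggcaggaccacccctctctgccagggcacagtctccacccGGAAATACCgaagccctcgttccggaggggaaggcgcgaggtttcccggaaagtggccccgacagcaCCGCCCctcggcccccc
Sele: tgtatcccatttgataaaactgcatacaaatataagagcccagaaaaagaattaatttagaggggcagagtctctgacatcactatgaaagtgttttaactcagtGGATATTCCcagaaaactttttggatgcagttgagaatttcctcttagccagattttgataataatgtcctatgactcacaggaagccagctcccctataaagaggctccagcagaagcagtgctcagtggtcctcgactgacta
Mcam: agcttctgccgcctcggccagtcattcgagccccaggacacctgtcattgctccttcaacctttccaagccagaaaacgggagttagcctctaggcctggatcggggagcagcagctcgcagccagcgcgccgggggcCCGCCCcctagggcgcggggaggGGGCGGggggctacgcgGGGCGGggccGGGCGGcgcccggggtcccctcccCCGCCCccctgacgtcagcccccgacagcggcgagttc

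GGNNNTTCC occurred 2 times in the Icam1 window, with first bases 153 and 84 bases before the start, and 1 time each in those of Sele (145 bases before) and Selp (14 bases before). It was in 15.7% of all 32851 RefSeq windows of this length. GGGCGG occurred 5 times before Mcam and 1 time before Icam1, and in 32.7% of all windows. The GC content was 73.6% for Mcam, 65.2% for Icam1, 53.6% for Selp, 46.4% for Cd34 and 40.4% for Sele, against a median of 52.4%. Cd34 held neither motif in this window. In the RefSeq gene order, Icam2 and Pecam1 lie on chromosome 11 with 2 protein-coding genes, Ern1 and Tex2, between them, and their positions on the array differed, as the values below show.

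Values are the deposited linear intensities, 1 per probe set and array. The median of the 3 design A arrays was 43.6, 44.2 and 44.3, and the 90th percentile was 261, 263 and 242. Each probe set was placed by its percentile among the 12422 probe sets of its array and by its log2 intensity minus the log2 median of the array, tested against 0 with limma (Benjamini-Hochberg over all probe sets of the design, called at adjusted p under 0.05). Probe sets differ in how well they bind, so the order of genes is an order of signals and not of transcript numbers, and a low signal is no proof that the transcript is missing. Fewer expressing cells and less RNA per cell cannot be told apart in sorted bulk RNA.

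Of the 11 probe sets, 4 lay above the 90th percentile on all 3 arrays, 1 each for Cd34, Vcam1, Mcam and Icam2. This was 36.4% of the members, against 8.95% of all design A probe sets. Another 1, for Icam1, was above the median but below the top 10%. Calls on either side of the median were about as common among the members as over the whole design, with 5 above (45.5%, against 44.4% of all probe sets) and 4 below (36.4%, against 44.3%), both near the background. Without replicate 1 the count below was 2. Their median log2 difference was 0.09, against 0 for all probe sets by construction. No call above the median was lost under any alternative tried.

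**Figure D1:**
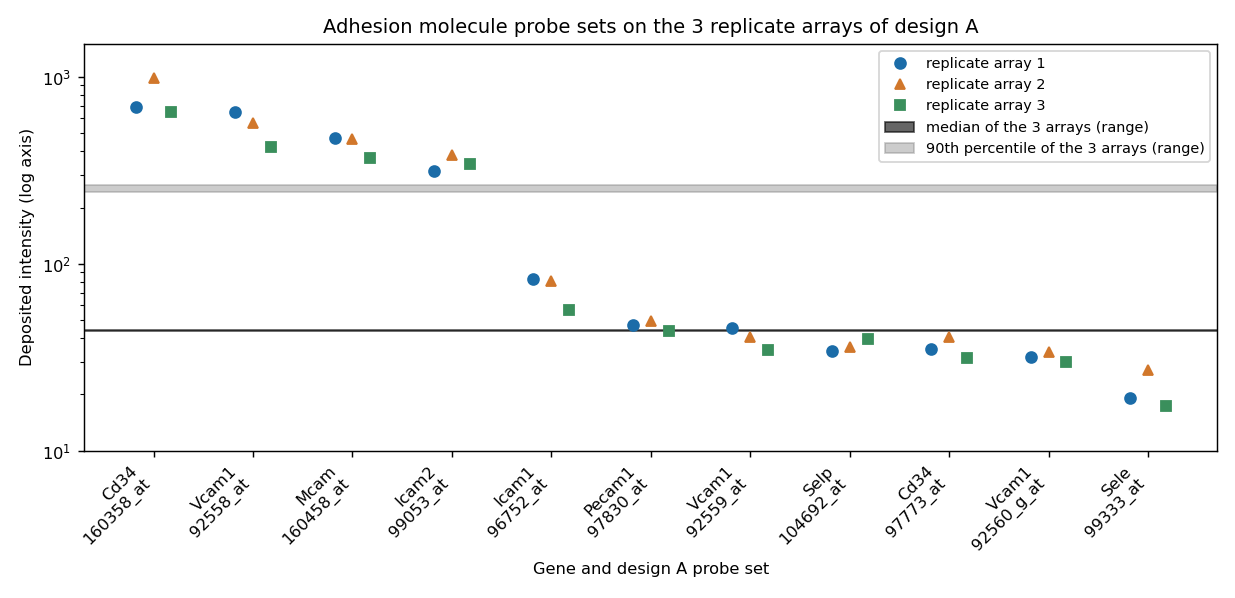
Deposited intensity (log axis) of the 11 adhesion molecule probe sets on the 3 replicate arrays of design A, with 1 point per array, in order of mean percentile. The dark line spans the 3 array medians (43.6 to 44.3) and the grey band the 3 90th percentiles (242 to 263). The first 4 probe sets lie above the band on every array, Icam1 lies between band and line, and Sele is lowest.

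Cd34 encodes a sialomucin of endothelium and blood progenitors. Its probe set 160358_at read 693.17, 980.96 and 649.59 on the 3 arrays. The second array was highest, and all 3 stood far over the 90th percentile. It lay 4.11 ± 0.12 log2 units (SE, n = 3) above the array median, or 17.3-fold (limma, adjusted p = 2.5e-07), at percentile 97.3 ± 0.58 (SD), the highest position of any member. The second Cd34 probe set, 97773_at, read 35.03, 40.71 and 31.46, all under the medians. Its difference was -0.31 ± 0.09 (limma, adjusted p = 0.017). That call was lost without replicate 1 (adjusted p = 0.056) and without replicate 3 (0.091), and against the 40th percentile the difference was 0.06 (0.60), with adjusted p from 0.0057 to 0.60 over all alternatives. On the same array, the 2 Cd34 probe sets differed by 19.8, 24.1 and 20.6-fold. Averaging them placed Cd34 at percentile 69.4.

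Mcam, also called CD146, is an immunoglobulin-type adhesion protein of endothelial junctions that mural cells make too. It read 470.80, 463.26 and 369.27, with the third array lowest and all above the 90th percentile. It lay 3.29 ± 0.10 log2 units (SE, n = 3) above the median, or 9.81-fold (limma, adjusted p = 2.2e-07), at percentile 94.4 ± 0.54 (SD). Mural cell markers were measured on all 3 designs. Of 20 probe sets for 12 mural genes, 2 were called above and 12 below, none was in the top 10%, and their median percentile was 39.1. Without replicate 1 or replicate 3, 1 was called above. Against the 40th percentile, 7 were called above and 8 below, and with low probe sets left out 1 was called below. By the best probe set of each gene, they ran from Tbx18 (24.5 ± 3.6) to Rgs5 (63.1 ± 3.5). Pdgfrb, the target of APB5, read 34.44, 25.52 and 40.70 (percentile 38.8 ± 9.1), and the pericyte proteoglycan Cspg4, on design B, lay at 51.5 ± 2.0. The summed intensity of the 11 mural probe sets on design A was 357 to 404 over the arrays, with none at 0, and the part of mural cells in the Mcam signal was not tested.

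Icam2 encodes a constitutive ligand of the leukocyte integrin LFA-1. It read 315.02, 384.42 and 340.52. The spread was typical (SD 0.14 on the log2 scale, against a median of 0.15 for the 1000 probe sets nearest in mean signal), and all arrays lay above the 90th percentile. The difference from the median was 2.97 ± 0.08 log2 units (SE, n = 3), or 7.85-fold (limma, adjusted p = 1.9e-07), at percentile 92.8 ± 0.82 (SD). Icam1, the inducible ligand of the same integrin and of Mac-1, read 82.53, 80.49 and 56.48. The third array was the low one, and all 3 exceeded the median without reaching the 75th percentile (97.1 to 102). Icam1 lay 0.71 ± 0.12 log2 units above the median, or 1.64-fold (limma, adjusted p = 0.0013), at percentile 66.4 ± 6.1. The percentile ranges of Icam2 and Icam1 did not overlap.

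Vcam1 encodes the ligand of the integrin VLA-4, and its probe sets fell apart. The probe set 92558_at read 645.98, 568.04 and 419.59, above the 90th percentile on all arrays. It lay 3.61 ± 0.13 log2 units (SE, n = 3) above the median, or 12.2-fold (limma, adjusted p = 4.7e-07), at percentile 95.8 ± 1.0 (SD). The probe set 92559_at read 45.21, 40.72 and 34.44, on both sides of the medians, and its difference was not called (-0.14 ± 0.10, limma, adjusted p = 0.20). The third, 92560_g_at, whose suffix is among those that mark shared or reduced probe sets, read 31.71, 33.82 and 30.01. All 3 values lay under the medians, with a difference of -0.47 ± 0.08 (limma, adjusted p = 0.00086). Against the 40th percentile this last difference was -0.10 (adjusted p = 0.24, with 0.00022 to 0.24 over all alternatives), and that of 92559_at turned to 0.22 (0.077, with 0.077 to 0.77).

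The gap within Vcam1 was far wider than the spread of any of its probe sets over arrays. The signal of 92558_at was 14.3, 13.9 and 12.2-fold that of 92559_at and 20.4, 16.8 and 14.0-fold that of 92560_g_at. The 2 lower probe sets differed by 1.43, 1.20 and 1.15-fold. A single position for Vcam1 therefore depends on the summary, at percentile 59.5 for the mean of its probe sets and 95.8 for the strongest. The sequences behind the probes were not used here, so which transcript each probe set reads was not tested.

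Sele, E-selectin, is made on activation and catches leukocytes in flow. It was the lowest member, with 19.11, 27.03 and 17.38, all under the medians. It lay -1.08 ± 0.13 log2 units from the median (SE, n = 3), or 2.12-fold below it (limma, adjusted p = 0.00017), at percentile 21.9 ± 8.0 (SD). It stayed called below the median under every alternative that fitted it, including the 40th percentile as the reference, and was left out only by the filter on low probe sets. The second array was the high one, and the highest reading was 1.56-fold the lowest. Of the 1000 probe sets nearest in mean signal, 96.8% had a smaller log2 SD.

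Selp, P-selectin, is stored in Weibel-Palade bodies of endothelium and in platelet granules and brought to the surface within minutes. It read 34.20, 35.75 and 39.60, under the median on each array. The difference was -0.27 ± 0.08 log2 units (SE, n = 3; limma, adjusted p = 0.013), at percentile 42.7 ± 2.5 (SD). The call was lost without replicate 1 (adjusted p = 0.082), and against the 40th percentile the difference was 0.09 (0.28), with 0.0052 to 0.28 over all alternatives. Platelet and megakaryocyte markers, measured for 6 of 9 genes, had 3 of 7 probe sets called above the median and 4 below, none in the top 10%, with a median percentile of 42.3. The platelet integrin chain Itga2b lay at percentile 72.6 ± 2.0 on design C and the platelet chemokine Pf4 at 42.3 ± 6.8 on design A, and Ppbp, another platelet chemokine, was lowest by best probe set per gene at 9.82 ± 3.5. Their 5 design A probe sets summed to 239 to 262, with none at 0, and the part of platelets in the Selp signal was not tested.

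Pecam1, CD31, is a widely used endothelial marker, and its only probe set lay in the middle of the arrays. It read 47.08, 49.55 and 43.86, above the median on the first 2 arrays and below it on the third. The difference of 0.09 ± 0.08 log2 units (SE, n = 3) was not called (limma, adjusted p = 0.31), at percentile 52.4 ± 2.5 (SD). Against the 40th percentile it was 0.45 and was called (adjusted p = 0.0013, with 0.0013 to 0.74 over all alternatives). All 13 pan-endothelial marker probe sets of design A lay higher, between percentiles 74.0 and 99.7. On design C, the same marker list held lower positions too, with Kdr at 49.6, Egfl7 at 43.1 and 17.9, and Flt1 at 99.9. Of the 20 design A probe sets for genes of unrelated tissues, such as liver and testis, 6 lay above Pecam1.

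The same genes of unrelated tissues give a scale for the others. On design A they lay between percentiles 3.95 and 74.2, with a median of 24.7. None of the 20 lay above the upper 4 members, 1 lay above Icam1, 7 above Selp and above the lower probe sets of Cd34 and Vcam1, and 10 above Sele. Signals of Icam1, Pecam1, Selp, Sele and the lower Cd34 and Vcam1 probe sets thus fell inside the range of these 20 probe sets. The 1 above Icam1 has a suffix among those that mark shared or reduced probe sets. The highest without such a suffix lay at percentile 61.3, under Icam1. Whether retinal cells make any of the listed genes was not tested. Neighbours in the order of members were not all apart. The percentile ranges overlapped between Vcam1 92558_at and Mcam and between all neighbours from Pecam1 down to Vcam1 92560_g_at, and were apart between Cd34 160358_at and Vcam1 92558_at, Mcam and Icam2, Icam2 and Icam1, Icam1 and Pecam1, and Vcam1 92560_g_at and Sele.

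**Figure D2:**
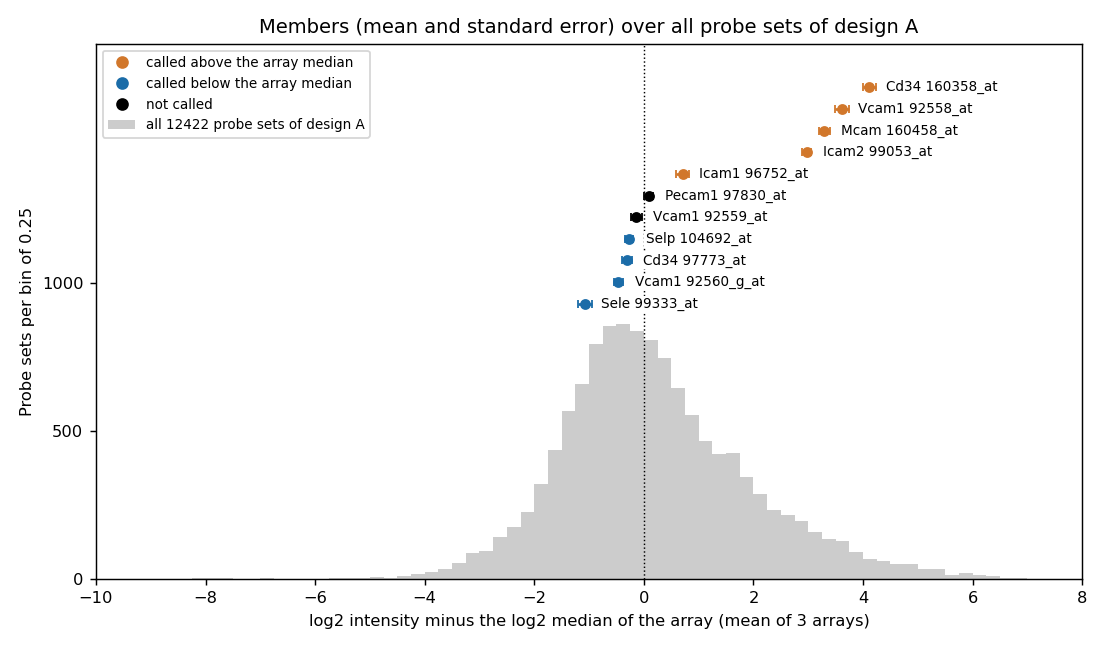
Log2 intensity minus the log2 median of the array for the 11 member probe sets (points, mean of 3 arrays, with standard errors from limma, at arbitrary heights) over a histogram of all 12422 design A probe sets in bins of 0.25. Cd34 160358_at, Vcam1 92558_at, Mcam and Icam2 lie between 2.97 and 4.11, Icam1 at 0.71 and Sele at -1.08.

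Replicates of the members were not evenly spread. After centring on the array median, 9 of the 11 probe sets were lowest on the third array of design A, as were 37.2% of all design A probe sets. The exceptions were Icam2 and Selp. The 9 hold the 3 Vcam1 and 2 Cd34 probe sets, so they stand for fewer than 9 genes. The third array stood 0.54 log2 units below the mean of the other arrays for Icam1 and for Vcam1 92558_at, 0.40 for Sele, 0.36 for Cd34 160358_at and 0.35 for Mcam, and 0.16 above it for Selp. The median shift was -0.33 for the members and -0.02 for all probe sets. Of the 1112 probe sets in the top 10%, 62.2% were lowest on the third array, with a median shift of -0.14. After quantile normalization, 8 of 11 members were lowest there, against 32.9% of all design A probe sets and 34.0% of the top-10% ones. The median shift was then -0.21 for the members, -0.02 for the top-10% probe sets and 0 for all. What lies behind the pattern was not tested. This pattern was picked after its values were seen.

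**Figure D3:**
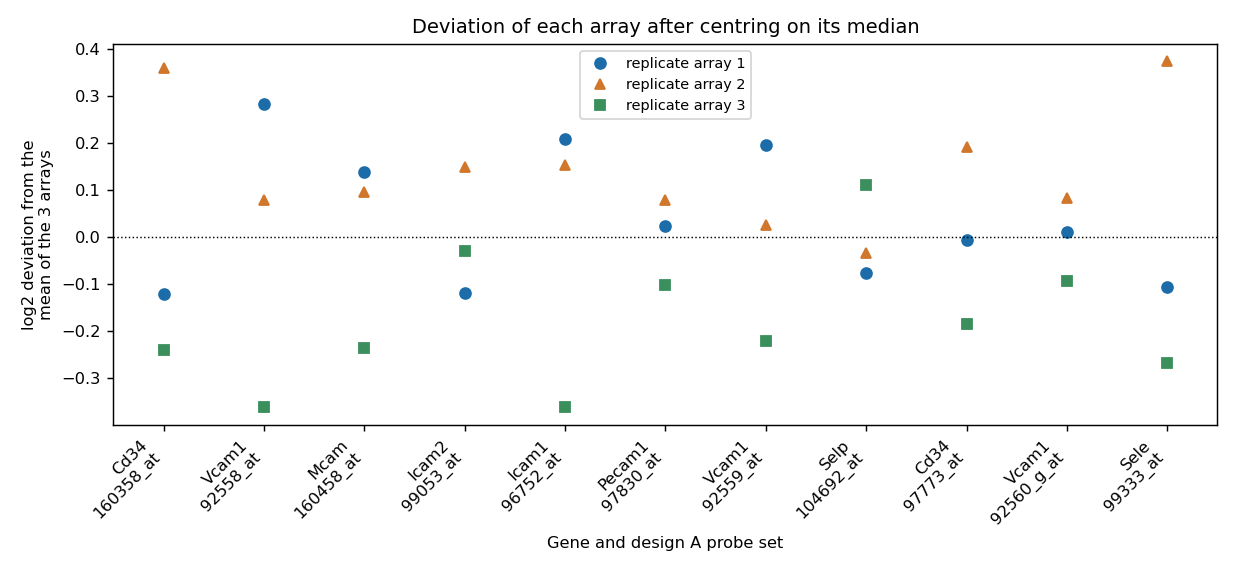
Deviation of each replicate array from the mean of the 3, in log2 units, after centring each array on its median, for the 11 member probe sets. Squares, the third array, are lowest for 9 probe sets, and Icam2 and Selp are the exceptions.

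The integrins that bind these molecules were spread over the whole scale. Over all designs, 44.1% of the 36701 probe sets were called above the median, 44.0% below, and 8.71% lay in the top 10% on all 3 arrays, and the median percentile of all is 50 by construction. Of 16 probe sets for 9 integrin chains that bind the ICAMs and VCAM1, 8 were called above and 7 below, 3 were in the top 10%, and their median percentile was 50.8. All 3 in the top 10% were for Itgb1, the beta1 chain that endothelium also uses to hold matrix, at percentiles up to 99.7 ± 0.073. Itgb2, the beta2 chain of LFA-1 and Mac-1, read 14.67, 15.65 and 15.80 (percentile 13.0 ± 0.35), and Itgal, the alpha chain of LFA-1, lay at 40.6 ± 3.7. Probe sets of Itga4, the alpha chain of VLA-4, ran from percentile 13.3 to 74.2.

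Leukocytes and macrophages themselves gave a mixed picture. Of 22 probe sets for 13 of their markers, 9 were called above the median and 11 below, 1 was in the top 10%, and the median percentile was 48.0. That 1 was for Laptm5 on design C (98.8 ± 0.88), whose design A probe sets read 83.71, 155.94 and 155.74, and 79.28, 184.00 and 168.39, with the first array low in both. Ptprc, the common leukocyte antigen, had 3 probe sets at percentiles 2.78, 4.95 and 51.6. The 19 design A probe sets summed to 995 to 1073 over the arrays, with none at 0, against 10842 to 12605 for the 13 pan-endothelial ones. The 20 design A probe sets for genes of unrelated tissues summed to 636 to 660. The mural and platelet sums above cover fewer probe sets (11 and 5), so these totals do not rank the lists. The part of leukocytes in the signals of the members was not tested.

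The selectin side was also spread. Among 17 probe sets for 7 selectin ligands, 8 were called above and 6 below, 1 was in the top 10%, and the median percentile was 56.2. Selplg, the main P-selectin ligand of leukocytes, lay at percentile 56.2 ± 2.4, and Glg1, a Golgi protein that binds E-selectin on myeloid cells, reached 96.1 ± 1.7 on design C. Glycam1, a secreted sialomucin of lymph node vessels, was lowest by best probe set per gene at 43.2 ± 5.5. Of 20 probe sets for 9 enzymes that build selectin ligands, 8 were called above, 9 below and 1 was in the top 10%, the sialyltransferase St3gal6 on design B (93.8 ± 1.5). The median percentile of the enzyme probe sets was 47.9, and the best probe set of St3gal3 lay at 25.3 ± 3.3.

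Molecules that share the endothelial surface with the members were more often in the top 10% than all probe sets were, a difference that was not tested. Of 8 probe sets for 4 sialomucins related to or placed like CD34, 6 were called above, 1 below, and 4 (50.0%) were in the top 10%, against 8.71% of all, with a median percentile of 92.0. Podxl, a relative of Cd34, reached 98.8 ± 0.31 with its design B probe set and 93.7 ± 0.22 with that of design C, but 48.1 ± 2.6 with that of design A. Podxl2 lay at 17.8 ± 1.5. Among 24 probe sets for 13 junctional and transmigration molecules, 15 were called above, 8 below and 7 (29.2%) were in the top 10%, with a median percentile of 80.7. F11r, which encodes the junctional molecule JAM-A, reached 99.4 ± 0.17 on design C, and the cadherin Cdh5 98.8 ± 0.49. The highest of 4 probe sets for Alcam lay at 15.1 ± 3.6.

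Inside the cell, 24 probe sets for 12 proteins that anchor or signal from these molecules gave 12 calls above, 8 below and 9 (37.5%) in the top 10%. They included Actn1, an actin cross-linker which binds the tail of ICAM1, at 99.3 ± 0.062, although other Actn1 probe sets lay as low as 9.0, and the phosphatase Ptpn6 lay at 42.2 ± 0.93. The median percentile was 62.3. The 20 probe sets for 11 Weibel-Palade body genes gave 9 calls above and 8 below (median percentile 49.6), with 1 in the top 10%, the stored clotting protein Vwf (638.35, 603.57 and 536.95, percentile 96.4 ± 0.27). A second Vwf probe set lay at 33.5 ± 0.59, and the small GTPase Rab3b was lowest by best probe set per gene at 28.0 ± 4.1. Among 14 probe sets for 7 cytokine receptors and NF-kappaB genes, 9 were called above and 5 below, with 3 in the top 10% and a median percentile of 75.2. Nfkbia, the NF-kappaB inhibitor that NF-kappaB itself induces, had probe sets at percentiles 73.0, 94.9 and 99.8, and Tnfaip3, another such feedback gene, lay at 39.7 ± 7.3.

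The labelled cell type was checked against its markers. Of 21 probe sets for 12 pan-endothelial genes, 18 were called above, 2 below, and 15 (71.4%) were in the top 10%, with a median percentile of 95.7. The count below was 1 without replicate 1 or without replicate 2. The VEGF receptors Flt1 (design C) and Kdr (design A) reached 99.9 ± 0.0049 and 99.3 ± 0.27. A second Kdr probe set, on design C, lay at 49.6 ± 1.6 and was not called. Tek, the gene of Tie2, lay at 92.6 ± 0.26. Egfl7 was lowest by best probe set per gene at 43.1 ± 1.9, with another at 17.9 ± 7.5. Muller glia and astrocyte markers had 4 of 20 probe sets called above and 16 below (median percentile 27.1), from Glul at 81.5 ± 2.5 to Kcnj10 at 7.75 ± 1.1 by best probe set per gene. Retinal neuron and photoreceptor markers had 7 of 18 above and 10 below (median percentile 38.5), with 1, for Pcp2, in the top 10% (98.8 ± 0.70). A second Pcp2 probe set lay at 14.3 ± 1.9, and by best probe set per gene Gap43 was lowest at 6.15 ± 4.8. Genes of unrelated tissues had 5 of 28 called above and 20 below (median percentile 19.2), and none in the top 10%. By best probe set per gene they ran from Umod at 15.2 ± 2.6 to Prm1 at 90.3 ± 1.1 on design C. Some genes stand in more than 1 of these lists.

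**Figure D4:**
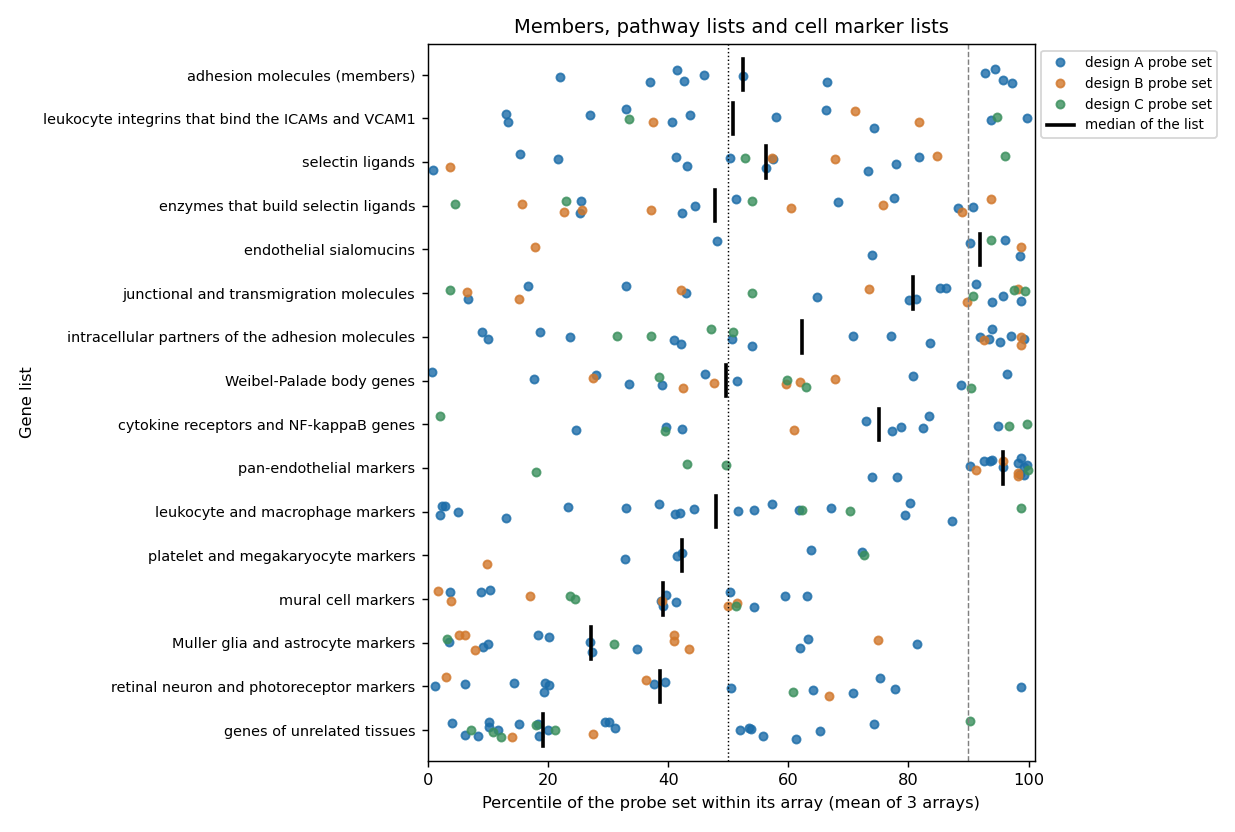
Percentile within the array (mean of 3 arrays) of each probe set of the members, of 8 pathway lists and of 7 marker lists, coloured by design, with a bar at the median of each list. The dotted line is the array median and the dashed line the 90th percentile. Members reach from 21.9 to 97.3, sialomucins have a median of 92.0 and pan-endothelial markers of 95.7.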

How the data were processed

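The authors deposited 1 table of linear intensities for each design. How these were summarised and scaled is not stated in the sources used here, and the tables hold no detection calls. Names came from the platform annotation, and symbols were updated through Entrez identifiers for 29044 of 29131 probe sets with 1 symbol. Another 724 had several symbols and 6846 were unnamed here. Exact zeros (7 values) were set to the lowest positive intensity of the same array. Log2 intensities minus the array median were fitted per design with limma 3.58.1 (R 4.3.3, lmFit and eBayes, intercept only, two-sided), adjusted over all probe sets of the design. The fit was also run on simulated data, with errors drawn independently for each probe set and array. Shifts common to an array were not simulated, so that run does not vouch for the calls reported here. An exact sign-flip test on 3 arrays cannot go below p = 0.25. The number of arrays limits the precision.

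The members and lists were chosen with earlier results of these data known. Genes named are the members, the gene highest and the gene lowest in each list by its best probe set, and preset partners and markers (integrins, Selplg, Ptprc, Itga2b, Pf4, Pdgfrb, Cspg4, Tek, Cdh5, Kdr, Vwf). Lists are described by counts and medians, with no test, and 1 listed gene is not reported here. Alternatives were the pseudocount, quantile normalization, the reference level, an intensity trend, a filter on low values, plain probe sets only and each replicate left out.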

Additional observations from a re-analysis of the deposited data

How the results depend on the processing

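The 5 member probe sets called above the median kept their calls under every alternative run. The count of 4 in the top 10% was rerun with the looser 75th percentile and with each replicate left out, and the 4 probe sets pass these by construction, so this is no check of stability. The count above was 6 against the 40th percentile, where Pecam1 joined. The count of member probe sets called below, 4, fell to 1 (Sele) against the 40th percentile, which lies 0.37 log2 units under the median and moved all of design A to 54.2% above and 34.1% below. It fell to 2 with low probe sets left out, where 9 members were fitted and 74.0% of the 7453 design A probe sets fitted were called above and 7.3% below, and lay between 2 and 4 with a replicate left out. Differences reversed, without a call, against the 40th percentile for Selp (0.09), Vcam1 92559_at (0.22) and Cd34 97773_at (0.06). With 50 added before log2, differences shrank by construction, to 0.38 for Icam1 and -0.40 for Sele. The count of members lowest on the third array was 9, and 8 after quantile normalization. Of 300 list counts under alternatives, 265 stayed within 1.5 times and 35 moved. Suffixes that mark shared or reduced probe sets also stood on the strongest probe sets of Itgb1, Actn1, F11r, Glg1, Glul, Laptm5, Nfkbia, Pcp2 and Prm1. With plain probe sets only, calls above fell from 5 to 2 for genes of unrelated tissues and from 7 to 4 for retinal neuron and photoreceptor markers. They fell from 4 to 2 for glia markers and from 18 to 16 for pan-endothelial markers. This setting leaves probe sets out, so falling counts are largely built in. Calls below fell too, from 20 to 13 for genes of unrelated tissues and from 10 to 7 for neuron and photoreceptor markers. For glia markers they fell from 16 to 13, and for pan-endothelial markers from 2 to 1. No paired analysis was possible because all arrays are of 1 condition and the designs hold different probe sets.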
